A study of Mus musculus with 12 samples.

Results

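The clustered protocadherins were examined in RNA-seq of retinal cells from newborn (P0) mice. Genes were chosen by symbol, as every alpha, beta or gamma cluster name listed for both cell fractions, which gave 24 of 38720 listed ids: 22 of the beta cluster (Pcdhb1 to Pcdhb22), 1 of the alpha cluster (Pcdha2) and 1 of the gamma cluster (Pcdhga9). All mice were of the labelled strain C57/BL6. The mKO mice were Math5-Cre;Ezh2 flox/flox. In them Ezh2, the H3K27 methyltransferase of polycomb repressive complex 2, was deleted in cells derived from Math5-expressing progenitors and not in the whole retina. According to the paper this Cre line reaches only part of the RGCs and a small share of all retinal cells. Both mKO fractions therefore also hold cells that keep Ezh2. The controls are labelled wild type (WT), and the RNA-seq methods of the study also name WT mice. Its general methods name Ezh2 flox/flox littermates without Cre as the control unless stated otherwise. The results of the study call the RNA-seq controls both littermate and WT, so whether they were littermates is not settled. Each retina was dissociated and separated with magnetic beads against Thy-1 (CD90) into retinal ganglion cells (RGCs) and the remaining cells (non-RGCs), and each of the 4 groups had 3 libraries from independent RNA extractions, 12 in all. Whether animals were pooled was not stated, so the p-values measure the spread between extractions.

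Clustered protocadherins are cadherin-like cell surface proteins that bind the same isoform on a neighbouring cell, and each neuron uses its own combination of them, largely by switching on individual promoters with the help of CTCF and cohesin. Each beta gene is a single complete gene, whereas every alpha and gamma protein joins its own variable exon to constant exons shared by the whole cluster. In the retina the gamma proteins are known for self-avoidance of starburst amacrine dendrites and for the survival of interneurons and RGCs. In the GENCODE M21 annotation of GRCm38 the 3 clusters follow one another on the plus strand of chromosome 18, the alpha cluster from 36930184 to 37187661, the beta cluster from 37264938 to 37524479 and the gamma cluster from 37661793 to 37841873. That annotation holds 14 alpha and 22 gamma genes. Since only Pcdha2 and Pcdhga9 stand for them here, whether these entries also hold reads of other isoforms through the constant exons was not stated, and they are called the Pcdha2 and Pcdhga9 entries. The C-type members Pcdhac1, Pcdhac2, Pcdhgc3, Pcdhgc4 and Pcdhgc5 were not among the listed ids under these names, so they could not be analysed.

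The libraries held 7139633 to 13014004 reads on genes, and the libraries of each group are lettered from the deepest (A) to the shallowest (C), an order that carries no replicate number. Normalized reads below are reads divided by the authors' size factors. Ezh2 itself, counted over the whole gene, had 1354, 1476 and 1443 normalized reads in mKO RGCs and 1190, 1206 and 1678 in WT RGCs, with overlapping groups (log2 fold change 0.09, SE 0.13, adjusted p = 0.64). In non-RGCs it had 1889, 2107 and 2509 in mKO and 2115, 2149 and 1683 in WT (log2 fold change 0.13, SE 0.15, adjusted p = 0.59). The counts cannot be split by exon, so they do not check the deletion of the SET domain exons. The paper reports less Ezh2 in mKO RGCs by qPCR and Western blot. It also reports a change of Ezh2 in its RNA-seq, which the whole-gene values here do not show. The summed level of 12 RGC markers was 2059 to 2130 RPM (reads per 1000000 reads on genes) in mKO RGCs and 2619 to 2766 in WT RGCs, with no overlap, and 513 to 814 over the 6 non-RGC libraries. The summed level of 10 progenitor markers was 1431 to 2418 RPM in the RGC libraries and 2424 to 3576 in the non-RGC libraries, so both sets of markers were found in both fractions. WT RGC library C stood apart: its progenitor markers summed to 2418 RPM against 1431 to 1581 in the other 5 RGC libraries, and its photoreceptor markers to 809 against 530 to 581. Over all 12 libraries amacrine and horizontal markers summed to 549 to 1357 RPM, astrocyte and glia markers to 327 to 716, blood, vessel and mesenchyme markers to 340 to 1256 and kidney markers to 16.1 to 45.6.

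The Pcdha2 entry, the beta genes in sum and the Pcdhga9 entry had more RPM in RGCs than in non-RGCs. The Pcdha2 entry took 530, 534 and 365 RPM in WT RGCs (mean 476 ± 96.5, SD, n = 3) and 67.9, 83.7 and 78.9 in WT non-RGCs (76.9 ± 8.08, SD, n = 3), a 6.20-fold difference. The Pcdhga9 entry took 687, 710 and 583 RPM in WT RGCs and 395, 431 and 518 in WT non-RGCs, a 1.47-fold difference. The sum of the 22 beta genes was 452, 490 and 379 RPM in WT RGCs and 246, 270 and 336 in WT non-RGCs. For both entries and for the beta sum the lowest WT RGC library lay above the highest WT non-RGC library. The ratio of WT RGCs to WT non-RGCs over the 21 beta genes above the filter ranged from 1.10 (Pcdhb16) to 3.20 (Pcdhb13), with a median of 1.47. Every WT RGC library exceeded every WT non-RGC library for 15 of the 21, against 24.4% of all genes tested in both fractions. In mKO the same was true of all 21, against 25.9% of all genes, with ratios of 1.81 (Pcdhb17) to 5.76 (Pcdhb2). The fractions were normalized in separate tables, so these levels in RPM are given with no test.

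**Figure D1:**
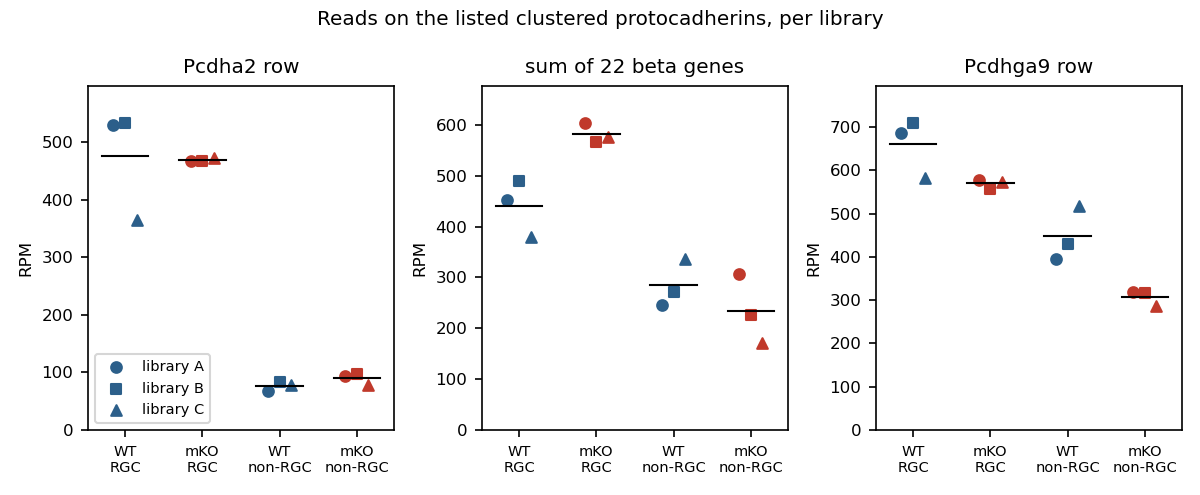
RPM (y axis, from 0) on the Pcdha2 entry, the sum of the 22 beta genes and the Pcdhga9 entry in each library, with WT in blue, mKO in red, one marker shape per library letter and a line at the mean of 3. The Pcdha2 entry lies between 365 and 534 RPM in RGCs and between 67.9 and 97.0 in non-RGCs, and the beta sum is lowest in library C among WT RGCs (379) and among mKO non-RGCs (171).

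The beta genes are alike in structure and can be compared per length, and 4 of them stood highest in WT RGCs. Levels are RPM per kb of exon. Pcdhb17 was highest in WT RGCs, at 12.3 ± 0.48 (SD, n = 3), followed by Pcdhb9 (11.3 ± 1.43), Pcdhb7 (8.90 ± 1.53) and Pcdhb20 (8.44 ± 0.056). The lowest library value of these 4 genes, 7.27, was above the highest of the other 17 tested genes, 6.20. At the low end stood Pcdhb14 (2.40 ± 0.44), Pcdhb8 (2.77 ± 0.29) and Pcdhb6 (2.88 ± 0.50), and the median over the 21 was 4.18. In this order the library ranges of neighbours overlapped in 19 of 20 pairs, the exception being Pcdhb20 and Pcdhb10, so most of the order is not set beyond the spread. The rank of Pcdhb14 rests on its exon model of 8695 bases, against a median of 3718 over the 21. In plain RPM Pcdhb14 had 20.9 in WT RGCs, against 9.66 for Pcdhb8 and 10.8 for Pcdhb6. The annotation behind the counts is not given, so its lengths may differ from those used here. Pcdhb1, at the 5′ end of the cluster, was at the detection floor: its reads per library were at most 2, under the floor of 3 reads, and it was not tested. The order was similar in WT non-RGCs (Spearman's rho 0.81 over 21 genes) and in mKO RGCs (0.82), as a description of genes that share libraries. Pcdhb17 also led in WT non-RGCs, at 9.88 ± 1.65 per kb. The 4 highest genes there were Pcdhb17, Pcdhb20, Pcdhb7 and Pcdhb16. They did not stand apart, as their lowest library value, 3.84, was under the highest of the other 17, 4.66. The rank of Pcdhb3 differed most between the WT fractions among the 21, at 7 in RGCs and 18 in non-RGCs.

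**Figure D2:**
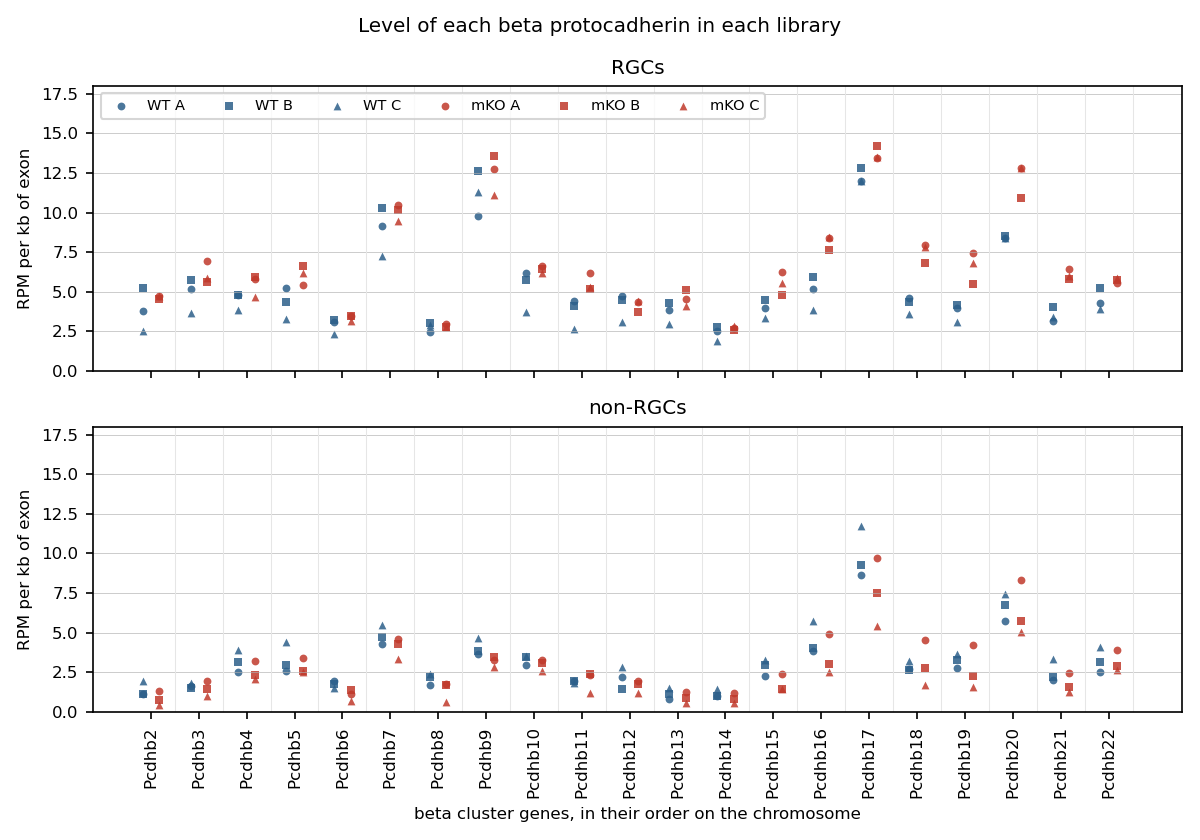
RPM per kb of exon (y axis) of the 21 beta genes above the filter, in chromosome order, for each library of RGCs (top) and non-RGCs (bottom), with WT in blue, mKO in red and a marker shape for each library letter. Pcdhb17 is highest in both fractions, and the lowest WT RGC value of Pcdhb17, Pcdhb9, Pcdhb7 and Pcdhb20 (7.27) is above all WT RGC values of the others (at most 6.20).

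The first comparison asked what changed in RGCs of mKO mice. Of the 23 members tested, 5 beta genes rose and the Pcdhga9 entry fell, while the Pcdha2 entry and the other 16 beta genes did not pass the test. The calls are from limma on log2(normalized reads + 1) with Benjamini-Hochberg adjustment over all 15647 genes that averaged 10 normalized reads or more, at an adjusted p under 0.05. By the same rule 16.0% of all genes were called higher and 21.7% lower, so 5 of 23 higher (21.7%) is near the background. The 5 genes were Pcdhb16, Pcdhb18, Pcdhb19, Pcdhb20 and Pcdhb21, which lie in the 3′ part of the beta cluster between 37477814 and 37518325, with Pcdhb17 among them not called.

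Pcdhb18 had 456, 395 and 461 normalized reads in mKO RGCs and 291, 277 and 223 in WT RGCs. All 3 mKO libraries lay above all 3 WT libraries, and the gene rose 1.66-fold (log2 fold change 0.73, SE 0.13, adjusted p = 0.0047). Pcdhb19 had 605, 449 and 569 in mKO and 353, 376 and 274 in WT, again with no overlap (log2 fold change 0.69, SE 0.16, adjusted p = 0.013). Pcdhb21 had 311, 284 and 296 in mKO and 166, 218 and 180 in WT, also with no overlap (log2 fold change 0.67, SE 0.13, adjusted p = 0.0068). These 3 had the largest changes of the cluster. Pcdhb16 rose by 0.61 on the log2 scale (491 ± 29.8 against 327 ± 71.9, SD, n = 3, adjusted p = 0.025) and Pcdhb20 by 0.40 (499 ± 45.8 against 376 ± 6.80, adjusted p = 0.012). Pcdhb17, the most abundant beta gene, had 710, 757 and 735 in mKO and 698, 757 and 691 in WT. Its log2 fold change was 0.04, with a 95% confidence interval of -0.11 to 0.19.

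Pcdhb11 was the only other member whose groups did not overlap upward in RGCs, with 311, 263 and 273 in mKO and 243, 229 and 143 in WT (log2 fold change 0.49, SE 0.21, adjusted p = 0.11). In all, 6 of 23 members had every mKO library above every WT library, against 24.1% of all genes, and 1 of 23 every mKO library below, against 28.9%. Log2 fold changes of the 21 beta genes ran from -0.08 (Pcdhb8) to 0.73 (Pcdhb18), with a median of 0.21 against -0.01 for all genes, and 19 were above 0, against 48.9% of all genes. This lean rested on 1 library: WT RGC library C was the lowest of the 6 for 18 of the 21 beta genes. Without it the median of the beta genes was 0.04 and 14 of 21 were above 0, while Pcdhb16, Pcdhb18, Pcdhb19, Pcdhb20 and Pcdhb21 were still called. Without mKO RGC library A or C, 2 of the 5 were called, Pcdhb18 and Pcdhb21. Over all genes 9.32% and 8.96% were then called higher, against 16.0% with all 6 libraries. The part of the progenitor and photoreceptor markers of WT RGC library C in these values was not tested. Markers also moved with the genotype in RGCs. In mKO 10 of 12 RGC markers, 5 of 10 progenitor markers and 4 of 10 photoreceptor markers were called lower and none higher. Over all genes 21.7% were called lower and 16.0% higher. With the GC trend removed, 7 of the 12, 0 of the 10 and 2 of the 10 were called lower and none higher. At that setting 8.82% of all genes were called lower and 4.43% higher. Amacrine and horizontal markers had 4 of 11 called lower and 1 higher, and 3 lower and 0 higher with the GC trend removed. Blood, vessel and mesenchyme markers had 1 of 12 called lower and 3 higher, and 0 lower and 3 higher with that trend removed. Of 7 glia and 4 kidney markers tested, 2 each were called lower and none higher. The part of these markers in the values of the beta genes and of both entries was not tested.

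The Pcdhga9 entry had 6550, 6393 and 6695 normalized reads in mKO RGCs and 8584, 8989 and 7211 in WT RGCs. The 3 mKO values were all under the 3 WT values, and the entry fell by 0.33 on the log2 scale (SE 0.089, adjusted p = 0.025). It was called with WT RGC library C left out (log2 fold change -0.42, adjusted p = 0.00027) and not with any of the other 5 libraries left out (adjusted p of 0.064 to 0.094). Scaling moved it as well: with RPM it was -0.21 (adjusted p = 0.072). Its direction turned with the trends in GC content and in reads per base both removed to 0.14 (adjusted p = 0.44). That setting took the exon length of Pcdhga9 alone, 5586 bases, where the exons of the whole gamma cluster cover 70891. Which length suits this entry is not known. The Pcdha2 entry had 5317, 5357 and 5510 in mKO and 6628, 6760 and 4515 in WT, so that 1 WT library lay below and 2 above all mKO libraries (log2 fold change -0.12, SE 0.15, adjusted p = 0.56). Without WT RGC library C the Pcdha2 entry was lower in mKO by the test, with a log2 fold change of -0.31 (adjusted p = 0.00068). At that setting the alpha and gamma entries were both called lower (28.4% of all genes were), and 5 beta genes higher (23.1% of all genes were).

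**Figure D3:**
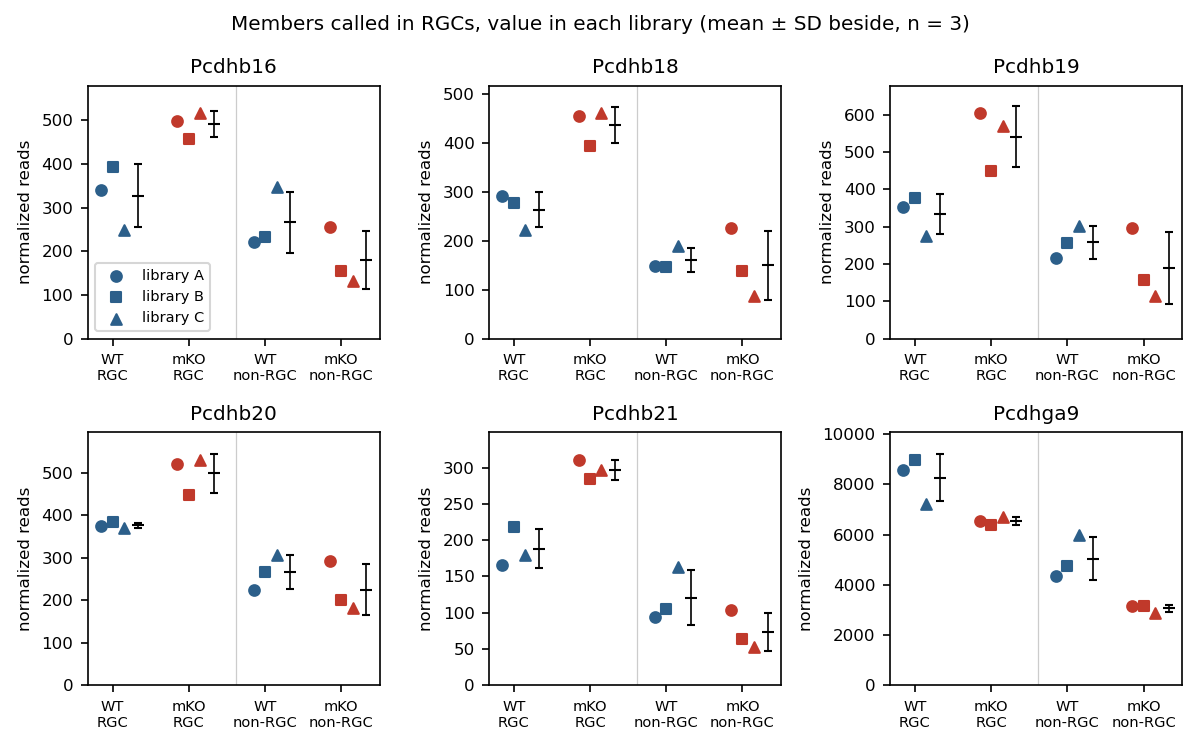
Normalized reads (y axis, from 0) of the 6 members called in RGCs, in each library of both fractions, with WT in blue and mKO in red, a marker shape per library letter and the mean ± SD (n = 3) beside each group. In RGCs the 3 mKO points lie above the 3 WT points for the 5 beta genes and below them for Pcdhga9 (6393 to 6695 against 7211 to 8989).

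In the non-RGCs the beta genes leaned the other way. All 21 tested beta genes had a negative log2 fold change, against 53.1% of all genes, with a median of -0.55 against -0.03, from -1.005 (Pcdhb2) to -0.19 (Pcdhb11). None of them passed the test; at an unadjusted p under 0.05, 7 beta genes were lower (16.9% of all genes) and none higher. The Pcdhga9 entry was the only member called: 0 of 23 were higher, where 4.03% of all 14914 genes were, and 1 of 23 lower, where 6.53% were. It had 3155, 3130 and 2881 normalized reads in mKO and 4338, 4763 and 6001 in WT, with no overlap, and fell by 0.71 on the log2 scale (SE 0.13, adjusted p = 0.015), a 1.63-fold decrease. Without mKO non-RGC library B its adjusted p was 0.072, and it stayed under 0.05 with any other library left out. The Pcdha2 entry had 935, 957 and 782 in mKO and 745, 926 and 913 in WT (log2 fold change 0.05, SE 0.15, adjusted p = 0.84).

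Groups did not overlap downward for 6 of the 23 members, the Pcdhga9 entry, Pcdhb6, Pcdhb7, Pcdhb8, Pcdhb9 and Pcdhb15, against 19.5% of all genes. Pcdhb6 had 42.4, 50.8 and 25.4 normalized reads in mKO and 80.3, 71.6 and 64.6 in WT (log2 fold change -0.90, SE 0.31, adjusted p = 0.087). Pcdhb15 had 65.5, 40.3 and 41.0 in mKO and 69.5, 91.9 and 105 in WT (log2 fold change -0.87, SE 0.29, adjusted p = 0.082). These 2 had the smallest p-values among the beta genes. The spread within groups was wide: mKO non-RGC library C, the shallowest of all 12, was the lowest of the 6 for 19 of 21 beta genes, and WT non-RGC library C the highest for 18. Pcdhb19 shows this, with 297, 157 and 113 in mKO and 215, 256 and 302 in WT. Without mKO non-RGC library C the median of the beta genes was -0.35 and 19 of 21 were below 0, and without WT non-RGC library C it was -0.33 with 21 of 21 below 0. RGC markers moved with the genotype in this fraction. Of 12, 8 were called higher in mKO non-RGCs, against 4.03% of all genes (608 to 814 RPM against 513 to 539). Tubb3 went the other way, with every mKO library below every WT library (log2 fold change -0.53, adjusted p = 0.080, not called). With the GC trend removed 3 of the 12 were called higher, against 0.674% of all genes. Progenitor markers summed to 2424 to 2703 RPM against 3073 to 3576. Of 10, 2 were called lower, against 6.53% of all genes, and 1 with the GC trend removed. Photoreceptor markers summed to 955 to 1069 RPM in mKO and 1120 to 1297 in WT, with 4 of 10 called lower. Amacrine and horizontal markers summed to 1007 to 1155 against 1249 to 1357, with 3 of 11 called lower. With the GC trend removed, 1 and 0 were called lower. Of 12 blood, vessel and mesenchyme markers 3 were called higher, also with that trend removed. Of 7 glia and 3 kidney markers tested, 1 and 2 were called lower. The part of these marker sets in the lower beta values was not tested, and in bulk RNA fewer cells of a type and less RNA per cell cannot be told apart.

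**Figure D4:**
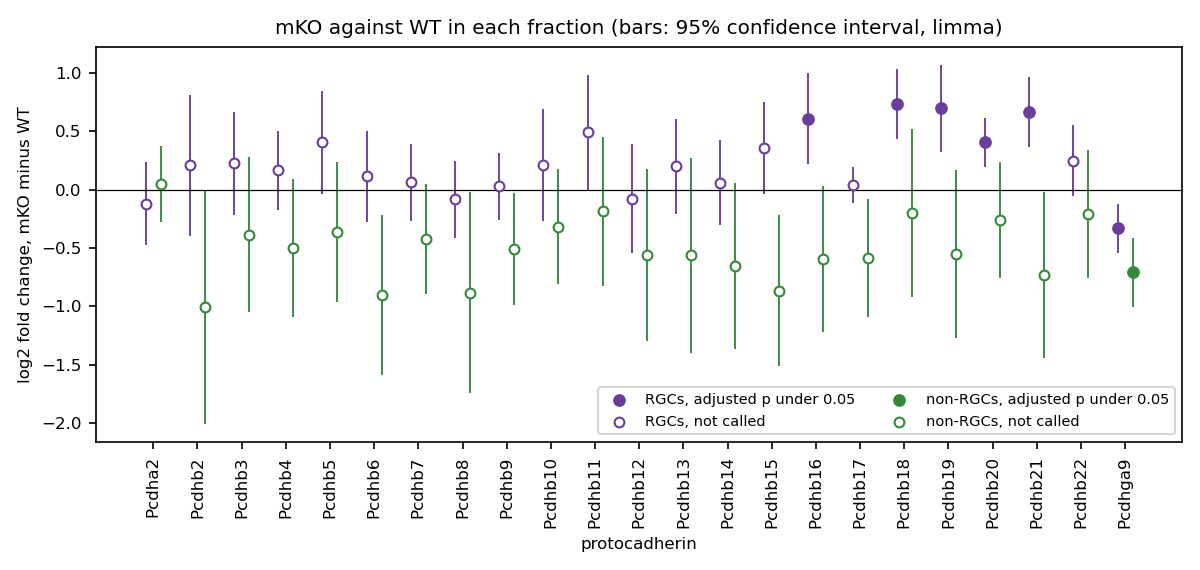
Log2 fold change of mKO minus WT (y axis) with its 95% confidence interval from limma for the 23 tested members, in RGCs (purple) and non-RGCs (green); filled points have an adjusted p under 0.05. The beta genes have a median of 0.21 in RGCs and -0.55 in non-RGCs, and the Pcdhga9 entry is below 0 and called in both (-0.33 and -0.71).

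The difference between the fractions was tested directly, as the mKO change in RGCs minus that in non-RGCs over the 12 libraries. All 21 beta genes and the Pcdhga9 entry had a positive difference, 22 of 23 members against 47.5% of all genes, with a median of 0.68 against -0.02; the Pcdha2 entry had -0.17. No member passed the adjusted test, in which 0 of 14506 genes were called in the positive direction (0.00%) and 16 in the negative (0.110%). At an unadjusted p under 0.05, 12 of 23 members had a positive difference, against 7.11% of all genes. The largest was that of Pcdhb21, at 1.40 (95% confidence interval 0.61 to 2.18, unadjusted p = 0.0021, adjusted p = 0.32, limma), followed by Pcdhb19 at 1.24 (0.38 to 2.11) and Pcdhb15 at 1.22 (0.50 to 1.95). This result depended on mKO non-RGC library A, whose beta sum of 306 RPM was the highest of its group, against 226 and 171. Without it Pcdhb15, Pcdhb16, Pcdhb18, Pcdhb19 and Pcdhb21 were called, with differences of 1.28 to 1.67, among 247 genes (1.70%) called in that direction. Among the alternatives run, members passed this test only with that library left out.

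The exons of the members differ in GC content, and in these libraries the fold change of all genes followed it. Among genes averaging 50 normalized reads or more, Spearman's rho between exon GC content and log2 fold change was -0.72 in RGCs (12236 genes) and -0.50 in non-RGCs (11691 genes). Pcdhb14 has the lowest GC content of the tested beta genes, 39.1%, and the longest exon model, 8695 bases. The GC content of the 5 called genes was 41.2% (Pcdhb19), 41.8% (Pcdhb18), 43.0% (Pcdhb16), 43.5% (Pcdhb21) and 44.7% (Pcdhb20), against a median of 45.8% over the 21 and 50.9% for Pcdhga9. Position, GC content and length are tied in this cluster, with a rho of -0.54 between position and GC content and -0.91 between GC content and length over 21 genes. In RGCs the rho of the fold change was 0.43 with position and -0.49 with GC content; as descriptions over neighbouring genes of the same libraries, these cannot be told apart.

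With each library's GC trend removed, no member was called in RGCs, where 4.43% of all genes were still called higher and 8.82% lower. The 5 beta genes kept positive values: 0.45 for Pcdhb21 (adjusted p = 0.057), 0.43 for Pcdhb18 (0.073), 0.37 for Pcdhb19 (0.17), 0.37 for Pcdhb16 (0.19) and 0.24 for Pcdhb20 (0.12). The Pcdhga9 entry was -0.19 (adjusted p = 0.24), and Pcdhb14 moved to -0.37 (adjusted p = 0.17). In non-RGCs the lean of the beta genes was as large without the GC trend: the median was -0.52, all 21 were below 0, and none was called, where 0.674% of all genes were called higher and 0.383% lower. The Pcdhga9 entry was then at -0.60 (adjusted p = 0.058). With the trend in reads per base removed as well, the beta medians were 0.01 in RGCs, where 11 of 21 were above 0, and -0.64 in non-RGCs, where all 21 were below 0. The Pcdhga9 entry was then at 0.14 in RGCs and -0.47 in non-RGCs, with reads per base taken over the exons of that gene alone.

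**Figure D5:**
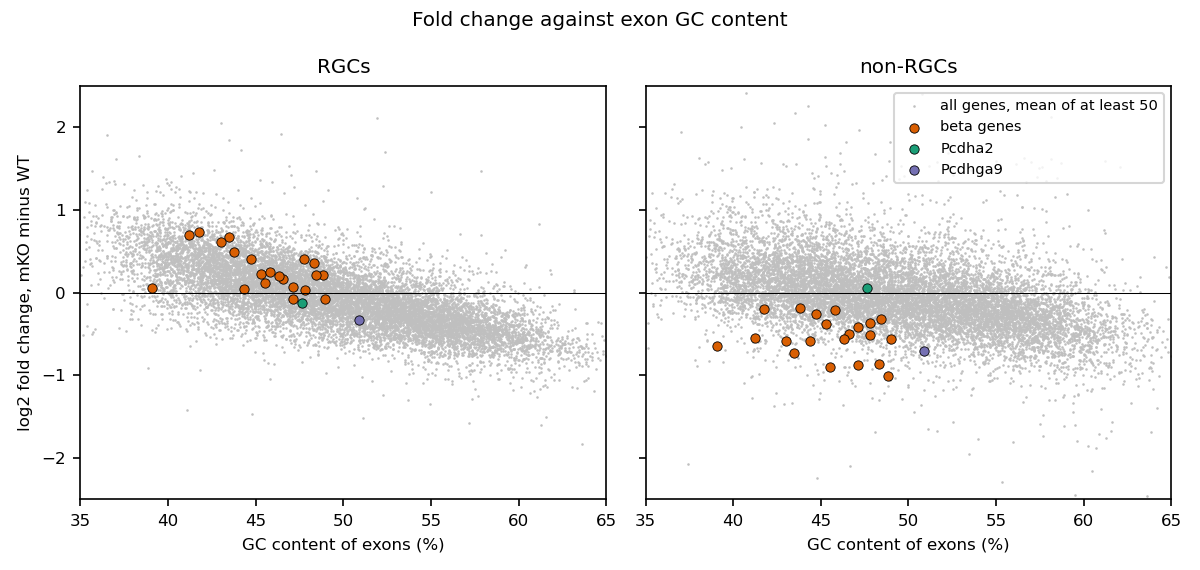
Log2 fold change of mKO minus WT (y axis) against exon GC content in percent (x axis) for every gene averaging 50 normalized reads or more (grey) and for the tested members (coloured), in RGCs (left) and non-RGCs (right); 68 and 70 genes lie outside the axes. The grey points slope down in RGCs (rho -0.72), the members lie between 39.1% and 50.9% GC, and the 21 beta genes sit below 0 at every GC content in non-RGCs.

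Genes known to act on the clusters were counted by list, beside the shares of all genes called in RGCs (16.0% higher, 21.7% lower, median -0.01) and in non-RGCs (4.03% higher, 6.53% lower, median -0.03). Of 14 tested regulators of promoters and loops, 5 rose in mKO RGCs and 2 fell, with a median log2 fold change of 0.19. The 5 were Nipbl, the cohesin loader (0.40, adjusted p = 0.0021), the cohesin subunits Stag1 (0.39) and Stag2 (0.37), the cohesin regulator Pds5b (0.31) and the promoter factor Zfp143 (0.33). The 2 that fell were the cohesin subunit Rad21 (-0.35) and the zinc finger protein Wiz (-0.55). Ctcf, which binds the protocadherin promoters and enhancers, had a log2 fold change of -0.11 in RGCs (adjusted p = 0.24). With the GC trend removed 2 of the 14 were called, both lower: Rad21 (-0.43, adjusted p = 0.015) and the cohesin regulator Pds5a (-0.26, adjusted p = 0.026). In non-RGCs Wiz fell (-0.76, adjusted p = 0.012), and the other 13 were not called.

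Of 16 silencing and methylation factors, 3 rose and 3 fell in mKO RGCs, near the background shares of 16.0% and 21.7%. Lrif1, a partner of the chromatin protein Smchd1, had 680, 704 and 755 normalized reads in mKO and 383, 333 and 302 in WT (log2 fold change 1.07, adjusted p = 0.00072). Smchd1, a silencer of the clusters, rose by 0.34 (adjusted p = 0.0033), and Tet1, which oxidizes methylated cytosine, by 0.55 (adjusted p = 0.0030). The DNA methyltransferase Dnmt1 fell (-0.37), as did the H3K9 methyltransferase Ehmt2 (-0.70) and the corepressor Trim28 (-0.68). In non-RGCs Lrif1 rose again (1.08, adjusted p = 0.013), and Dnmt1 (-0.53), Dnmt3a (-0.38), Tet3 (-0.77) and Ehmt2 (-0.59) fell. With the GC trend removed, 2 of the 16 were called in RGCs, Tet1 (0.37) and Trim28 (-0.27), and none in non-RGCs.

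Among 13 protein partners and processing factors, 1 rose and 3 fell in mKO RGCs, against background shares of 16.0% and 21.7%. The synaptic protein Nlgn1 rose (0.49), and the kinase Fyn (-0.35) and Axin1 (-0.27) were among those that fell. In non-RGCs Pdcd10 rose (0.65), and the other self-avoidance molecules Dscam (-0.60) and Dscaml1 fell. Dscaml1 had 214, 208 and 144 normalized reads in mKO non-RGCs and 789, 816 and 436 in WT, with no overlap (log2 fold change -1.81, SE 0.26, adjusted p = 0.0074), and it was called with the GC trend removed (-1.53, adjusted p = 0.044). In RGCs the protease Adam10 (-0.29) and Fyn (-0.31) were called with the GC trend removed.

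Of 18 tested non-clustered protocadherins and related cadherins, 3 rose and 3 fell in mKO RGCs, near the background shares, with a median of -0.02. The cadherins that rose were Pcdh20 (0.98, adjusted p = 0.022), Pcdh11x (0.85, adjusted p = 0.022) and Fat4 (0.58, adjusted p = 0.038), and those that fell were Pcdh8 (-0.41), Celsr2 (-0.40) and Cdhr1 (-0.35). In non-RGCs Pcdh20 rose (1.07) and Cdhr1 fell (-0.64). With the GC trend removed none of the 18 was called in either fraction. Of 11 tested genes flanking the clusters, 2 rose and 3 fell in mKO RGCs, near the background shares: Hars2 (0.37), Taf7 (0.46), which lies between the beta and gamma clusters, Hdac3 (-0.26), Rell2 (-0.64) and Fchsd1 (-0.38). With the GC trend removed Hdac3 (-0.25) was called and the others were not. None of 12 was called in non-RGCs, where the median log2 fold change of the flanking genes was 0.17, that of the non-clustered protocadherins and related cadherins -0.29, that of the beta genes -0.55 and that of all genes -0.03.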

How the data were processed

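RNA was measured in P0 RGCs and non-RGCs of mKO and WT mice, with 3 libraries per group, grouped by their labels. The authors made poly-A libraries. Single-end reads were placed on mm10 by STAR (version 2.3.1z4 in the submitters' processing notes), assigned to genes by featureCounts and scaled with DESeq; deposited names also point to primary, deduplicated reads. The gene annotation and the handling of reads shared by several genes are not given in the sources used here. The deposited signal values are counts divided by size factors and averaged by the authors over the 3 libraries of a group; 0 columns of per-sample values were left unused. The authors' own fold changes and p-values, taken as WT over mKO, were not used.

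The reads of each library were solved for from the many digits of each deposited mean, with exactly 1 combination of whole reads for 100% of the genes with reads, and the recovery was tested on simulated means. Genes with a mean of at least 10 normalized reads in a fraction were tested with limma (3.58.1, R 4.3.3; mean-variance trend) on log2(normalized reads + 1), a scale that understates the change of low genes, with Benjamini-Hochberg adjustment. The difference between fractions was a contrast over the 12 libraries for genes tested in both. With 3 against 3, an exact permutation test cannot go below p = 0.1. The limma step was tested on simulated counts. Levels per kb use exon bases of GENCODE M21 (GRCm38) not shared with another listed gene; Pcdhb21 and Pcdhb22 overlap in it, and at most 4.05% of the windows of 75 bases in a beta gene also occur in another gene. GC trends were removed per library by lowess, for the 94.2% of tested RGC genes and 94.3% of tested non-RGC genes with a known GC content; the joint trend (GC content plus reads per base) used 300 neighbouring genes. The 3 highest and 3 lowest beta genes by level in WT RGCs, every called member, and called genes of the lists of regulators, silencing factors, partners, other protocadherins and flanking genes are named, except 1 that is not reported here; Pcdhb2, Pcdhb11, Pcdhb13 and Pcdhb15 were added after their values were seen, and so was the GC content of a whole cluster for Pcdha2 and Pcdhga9. The members and lists were chosen with earlier results of these data known. Sequences of the members were not used here.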

Additional observations from a re-analysis of the deposited data

How the results depend on the processing

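No paired analysis was possible because the recovered columns carry no replicate numbers. Pcdhb1 had at most 2 reads per library, under the floor of 3, so depth allowed no test of it. The 5 members called higher in mKO RGCs became 0 with the GC trend removed, 0 with the GC and reads per base trends removed and 0 with the GC content of the whole cluster. With a library left out they became 2 to 6, where 8.96% to 23.1% of all genes were called higher. The 1 called lower in mKO RGCs became 0 under those 3 GC settings, 0 with RPM, 0 with upper quartile size factors, 0 in limma without the trend, 0 with a fold change of at least 1.5 as well, and 0 to 2 with a library left out. In mKO non-RGCs the 1 called lower became 0 under the 3 GC settings and in limma without the trend, and 0 to 1 with a library left out. Calls in the difference between fractions were 0 under each setting run except 5 in the positive direction without mKO non-RGC library A, a range of 0 to 5. In RGCs, 2498 genes were called higher and 3391 lower, against 654 and 1302 without the GC trend, 259 and 567 without both trends and 3690 and 2226 with RPM, which moved the median of all genes from -0.01 to 0.11. Non-RGCs gave 601 and 974, against 95 and 54, 105 and 105, and 1257 and 433, with the median moved from -0.03 to 0.14 by RPM. The beta genes lay above 0 in 21 of 21 cases in RGCs and below 0 in 21 of 21 in non-RGCs with RPM.

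Signs turned in RGCs for the called Pcdhga9 entry, from -0.33 to 0.14 without both trends, and for members that were not called. Pcdha2 was 0.00066 with RPM, 0.24 without both trends and 0.052 with the cluster's GC content, while Pcdhb8 was 0.038 with RPM. For both entries the trend in reads per base used the exon length of the named gene alone, which may not suit them. Pcdhb12 also turned above 0 with RPM, where all 21 beta genes were above 0, and with upper quartile size factors, where all but Pcdhb8 were. Without the GC trend Pcdhb6 was -0.0096, Pcdhb14 -0.37 and Pcdhb17 -0.14, each also with the cluster's GC content. Without both trends Pcdhb3 was -0.023, Pcdhb4 -0.015, Pcdhb6 -0.18, Pcdhb7 -0.055, Pcdhb9 -0.014, Pcdhb13 -0.035, Pcdhb14 -0.55 and Pcdhb17 -0.16. With a library left out the RGC values ran from -0.044 to 0.21 for Pcdhb6, from -0.084 to 0.18 for Pcdhb7, from -0.069 to 0.13 for Pcdhb9 and from -0.11 to 0.17 for Pcdhb14, and the non-RGC values from -0.050 to 0.14 for Pcdha2 and from -0.55 to 0.14 for Pcdhb18. These are not all the turns. Without WT RGC library C 7 of the 21 beta genes were below 0 in RGCs. Without mKO non-RGC library C 2 of the 21 were above 0 in non-RGCs. The cause of these changes was not tested.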
